A study of Mus musculus with 90 samples.

Results

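The genes of 5 immunity-related GTPases (Igtp, Irgm1, Irgm2, Iigp1 and Ifi47) and of the ubiquitin-like protein Ubd were followed across 90 arrays of subcutaneous melanoma allografts in mice. They were chosen by gene name, and every probe set annotated to one of them was taken, which gave 7 probe sets for 6 of the 18193 genes measured. The tumours carry the genotype Hgftg;Cdk4R24C/R24C, an Hgf transgene with a Cdk4 knock-in, and all groups share it; the labels give the mouse strain as B6.cBrd. Neither the promoter of the transgene nor the age of the mice is stated in the labels. The 5 antibody groups received mIgG1 D265A against mouse PD-L1 at 10 mg/kg per the sample labels, while the series text also allows a higher dose for either antibody, and the groups are defined by tumour growth. Relapse tumours (6) had regressed below a measurable volume and regrew, and were taken after 4 to 10 doses. Stabilization tumours (3) did not change in volume between 2 consecutive measurements. Responder tumours (27) had lost at least 5% of their volume and had been dosed 2 to 12 times at harvest. In the GrowthDelay group (2) tumours did not grow at first and developed later, and NonResponder tumours (23) progressed under the antibody and were harvested at matching times. Control IgG tumours (22) received normal IgG at 10 mg/kg, and PBS tumours (7) received the vehicle at 10 ml/kg. A tumour was divided at necropsy, so an array reports on a section of it. Separate mice per array are not stated in the labels, and p-values therefore measure the spread between these samples only.

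Immunity-related GTPases are large GTP-binding proteins of mice that interferon gamma induces and that defend cells against parasites and bacteria living inside vacuoles. Igtp, Irgm1 and Irgm2 form the regulatory class, which sits on the cell's own membranes and holds the other class inactive there, while effector GTPases such as Iigp1 load onto the vacuole and break it. Ubd, also called FAT10, is a small protein related to ubiquitin that marks others for the proteasome, and interferon gamma and tumour necrosis factor induce its gene.

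The promoters of the members are shown because Igtp and Irgm2 are neighbouring genes on chromosome 11 whose transcripts varied most closely together, as described further on. RefSeq sequences (build GRCm38.p6) of the 250 bases before the transcription start were found for 5 of the 6 members. They were searched on both strands for the core of the interferon-stimulated response element (GAAA, 2 bases of any kind, GAAA), for the gamma-activated site (TTCNNNGAA) and for an NF-kappaB core (GGG, 5 bases of any kind, CC). Capitals mark matches to the first of these motifs or the second in Igtp, Irgm2 and Irgm1, and the match to the third in Ubd. The windows are chr11:58199306-58199555 (plus strand) for Igtp, chr11:58214727-58214976 (plus strand) for Irgm2, chr11:48871421-48871670 (minus strand) for Irgm1 and chr17:37193642-37193891 (plus strand) for Ubd, each written 5′ to 3′.
Igtp: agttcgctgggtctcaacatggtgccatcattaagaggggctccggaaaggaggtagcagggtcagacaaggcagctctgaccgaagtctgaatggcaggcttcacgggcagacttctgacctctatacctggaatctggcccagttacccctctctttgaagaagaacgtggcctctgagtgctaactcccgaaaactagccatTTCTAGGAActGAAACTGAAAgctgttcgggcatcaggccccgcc
Irgm2: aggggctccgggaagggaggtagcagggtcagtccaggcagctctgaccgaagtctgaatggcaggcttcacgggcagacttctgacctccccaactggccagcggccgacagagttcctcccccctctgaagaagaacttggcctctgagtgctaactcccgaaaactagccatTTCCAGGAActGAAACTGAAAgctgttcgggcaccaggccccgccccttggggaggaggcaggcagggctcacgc
Irgm1: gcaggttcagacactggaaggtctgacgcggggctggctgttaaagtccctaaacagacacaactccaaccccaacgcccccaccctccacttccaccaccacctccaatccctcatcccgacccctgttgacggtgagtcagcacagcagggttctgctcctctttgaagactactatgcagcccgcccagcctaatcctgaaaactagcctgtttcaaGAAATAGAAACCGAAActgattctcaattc
Ubd: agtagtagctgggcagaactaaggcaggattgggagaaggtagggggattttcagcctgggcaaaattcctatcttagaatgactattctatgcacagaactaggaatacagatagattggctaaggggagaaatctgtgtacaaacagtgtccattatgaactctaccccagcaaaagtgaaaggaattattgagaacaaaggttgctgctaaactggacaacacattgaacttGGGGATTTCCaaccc

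Igtp and Irgm2 hold a gamma-activated site followed by a response element core, in the same order and at the same spacing. In Igtp the matches run from -45 to -37 and from -34 to -25 relative to the start site, and in Irgm2 from -75 to -67 and from -64 to -55. Both motifs together occur in 0.332% of 32851 mouse promoter windows of this length, the response element core in 2.98% and the gamma-activated site in 7.02%. The Igtp and Irgm2 windows aligned over 220 columns with 194 identical bases (88.2%). Irgm1 holds a pair of response element cores that overlap, from -30 to -21 and from -24 to -15, and no gamma-activated site. Neither motif was found in the windows of Ifi47 or Ubd. Ubd holds GGGGATTTCC from -15 to -6, a match to the NF-kappaB core, which 45.8% of the windows match. Irgm2 also matches that core, at positions left in lower case. A match is a string of letters in a window and was not tested as a binding site.

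All values below are on the log2 scale as deposited, after robust multi-array average (RMA) normalization, and a level of one probe set cannot be set against that of another. Array medians lay between 5.71 and 5.9. Sample titles are numbers in 4 separate ranges, called title series here, whose meaning the labels do not give. The larger series (53 arrays) and the smaller series (25 arrays) both hold Relapse, Responder and NonResponder tumours, and the control IgG tumours lie in the larger series (14) and in a range of their own (8). The 9 melanocyte markers averaged 10.5 in the median array, and 5 arrays lay more than 1 below that. These were Responder replicates 20 (7.17) and 21 (7.01), Stabilization replicates 1 (7.31) and 2 (9.44) and NonResponder replicate 14 (8.88). Responder replicate 20 and NonResponder replicate 14 were also high in markers of lymph node stroma, at 10.18 and 9.83 against a median of 5.68. Results are given with all arrays and, where these arrays matter, without them. In bulk tissue a higher share of cells that express a gene and more of its RNA per cell cannot be told apart.

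The first comparison sets regressing (Responder) beside progressing (NonResponder) tumours, all of which had received the antibody against PD-L1. All 6 genes were higher in Responder tumours, by 0.40 to 0.81 for the GTPases and by 2.21 for Ubd. Among all genes 17.2% were called higher and 29.8% lower at an adjusted p under 0.05 (limma, Benjamini-Hochberg over 18193 genes), so that 47% changed. Centring each array on its median turned the share of higher genes among those called to 18.4%, against 36.7% as deposited, and the 6 members stayed called. The median difference of the 6 members was 0.61, and that of all genes -0.06.

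Of the regulatory GTPases, Igtp ran from 10.89 through a median of 12.03 to 12.81 in Responder tumours, against 10.05, 11.32 and 12.23 in NonResponder tumours. The groups overlapped, with 9 of 27 Responder arrays above the highest NonResponder array and 24 above the NonResponder median. The difference was 0.81 ± 0.15 (SE; 1.75-fold; limma adjusted p = 0.000155). Irgm2, the gene beside Igtp, had a lowest value of 9.71, a median of 10.46 and a highest value of 11.16 in Responder tumours, against 8.96, 9.83 and 10.7 in NonResponder tumours. It differed by 0.62 ± 0.13 (1.53-fold; limma adjusted p = 0.000464), with 25 of 27 Responder arrays above the NonResponder median. Irgm1, whose protein is tied to autophagy and to the upkeep of mitochondria and lysosomes, spanned 9.53 to 11.83 in Responder tumours with a median of 11.17, against 10.07 to 11.3 with a median of 10.57 in NonResponder tumours. Its difference was 0.50 ± 0.12 (1.41-fold; limma adjusted p = 0.00156). The lowest Responder value of Irgm1 and of Irgm2 belongs to replicate 20, and the highest NonResponder value of Igtp to replicate 14, both low in melanocyte markers.

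Of the effector class, Iigp1 ran from 10.94 through 12.65 to 13.11 in Responder tumours, against 10.2, 12.1 and 12.65 in NonResponder tumours. No NonResponder array exceeded the Responder median, and 14 of 27 Responder arrays exceeded the highest NonResponder array. Iigp1 was 1.51-fold higher (0.60 ± 0.16, limma adjusted p = 0.00314), and its other probe set gave 0.65 ± 0.17. Ifi47, also called Irgd, is a further GTPase of this family. It ran from 10.99 through 12.26 to 12.88 in Responder tumours, against 10.46, 11.97 and 12.34 in NonResponder tumours. Its difference of 0.40 ± 0.13 (1.32-fold, limma adjusted p = 0.0114) was the smallest of the 6, and 19 of 27 Responder arrays lay above the NonResponder median.

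Ubd ran from 6.25 through 10.22 to 12.09 in Responder tumours, against 4.14, 7.96 and 10.39 in NonResponder tumours. The groups overlapped over a wide range, since 9 of 27 Responder arrays lay above the highest NonResponder array and 22 above the NonResponder median. The highest Responder value belongs to replicate 21 and the highest NonResponder value to replicate 14, again arrays low in melanocyte markers. The 17 Responder arrays of the larger series fell into 10 arrays up to 8.82 and 7 arrays from 10.12 on, with a gap of 1.3 between them. Ubd had the largest rise of the 18193 genes in this comparison (2.21 ± 0.40, 4.63-fold, limma adjusted p = 0.000103). Igtp was exceeded by 2.03% of all genes and Ifi47 by 7.67%.

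**Figure D1:**
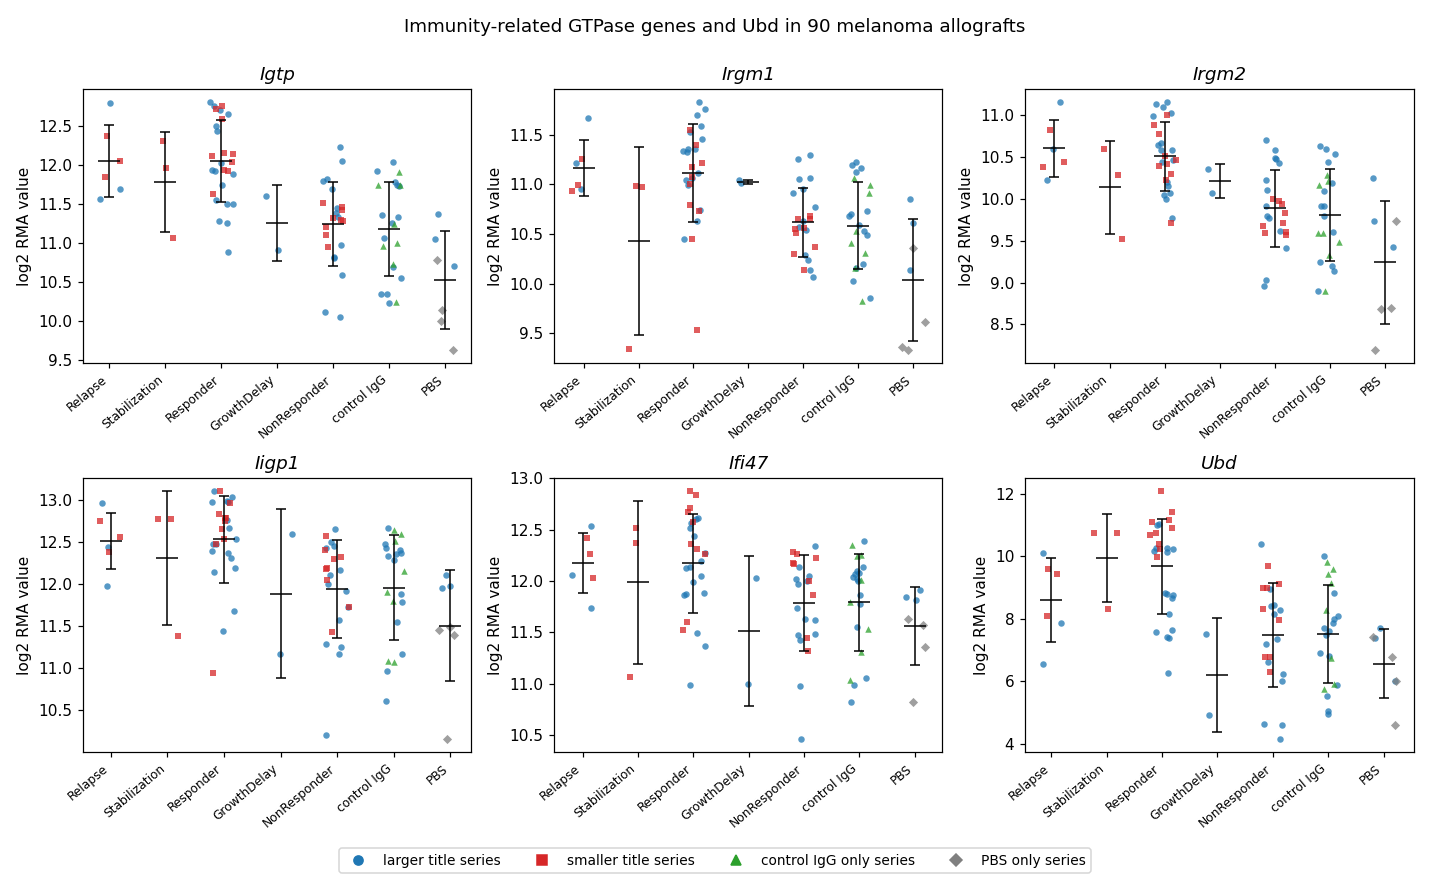
Deposited log2 values of the 6 genes (vertical axis) in the 7 groups, 1 point per array, coloured by title series; the bar is the mean and the whiskers are 1 SD. The Responder points of all 6 genes reach higher than the NonResponder points but overlap them, with Ubd spread from 6.25 to 12.09 in Responder tumours against 4.14 to 10.39 in NonResponder tumours.

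Within the larger title series the differences were 0.74 for Igtp, 0.57 for Irgm2, 0.55 for Irgm1, 0.69 for Iigp1, 0.39 for Ifi47 and 1.87 for Ubd. There 5 of the 6 were called higher, all but Ifi47 (limma adjusted p = 0.129), against 0.616% of all genes called higher. With the larger series fitted alone 3 were called, Igtp, Irgm1 and Ubd. Within the smaller series the differences were 0.92 for Igtp, 0.70 for Irgm2, 0.40 for Irgm1, 0.45 for Iigp1, 0.40 for Ifi47 and 2.77 for Ubd. Igtp, Irgm2 and Ubd were called there, against 14.3% of all genes called higher. Values of Igtp and Ubd did not overlap between the 10 Responder and 9 NonResponder arrays of the smaller series. How many of all genes separate these arrays was not counted, and 8882 of 18193 had an unadjusted p under 0.05 there (limma). The lowest Ubd value was 9.97 in these Responder tumours, against a highest value of 9.68 in the NonResponder tumours. The difference between the series did not pass for any member (limma interaction, adjusted p = 0.609 to 0.991), with Ubd at -0.90 ± 0.82 for the larger minus the smaller series. No gene of 18193 passed that test, and 2418 had an unadjusted p under 0.05.

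The log2 values of the members did not move by equal amounts. Their probe sets differ in mean level, from 8.2 for Ubd to 12.13 for Iigp1. Whether they report an equal change of RNA equally was not tested. In 100000 permutations of the group labels within title series (two-sided, adjusted over 15 pairs), the Ubd difference exceeded that of each GTPase by 1.41 to 1.82 (adjusted p = 0.00015 for each of the 5 pairs). It exceeded Igtp by 1.13 within the larger and by 1.85 within the smaller series. Among the GTPases, Igtp moved more than Irgm2 by 0.19 (adjusted p = 0.00114), more than Irgm1 by 0.31 (adjusted p = 0.00244) and more than Ifi47 by 0.41 (adjusted p = 0.00114). Iigp1 moved more than Ifi47 by 0.20 (adjusted p = 0.0144). The remaining 6 pairs did not pass, at differences of 0.02 to 0.22. Without the 5 arrays low in melanocyte markers Igtp over Iigp1 passed too (0.19, permutation, adjusted p = 0.0322), against 0.21 (adjusted p = 0.0549) with all arrays.

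Markers of some immune cells moved in the same comparison, while of 6 measured B cell markers 0 were called, with a median difference of -0.08. All 7 measured T cell markers were called higher, and their mean level per array had a median of 7.89 in Responder tumours (5.73 to 10.15), against 6.44 in NonResponder tumours (5.36 to 10.15). All 8 macrophage markers were called higher, with a median level of 10.57 (8.54 to 12.11) against 9.58 (8.41 to 11.93), and 5 of 7 markers of natural killer and cytotoxic cells, with 8.36 (6.46 to 9.29) against 7.35 (5.86 to 9.42). Of 9 melanocyte markers 2 were called lower, with a median level of 10.45 (7.01 to 10.83) against 10.55 (8.88 to 10.91). The part of these cells in the differences of the 6 genes was not tested. Without the 5 arrays low in melanocyte markers all 6 genes were again called, with 0.48 for Ifi47 and 2.32 for Ubd as the smallest and largest difference. Without the 2 arrays high in lymph node markers they were called too, with 0.44 for Ifi47 and 2.38 for Ubd.

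Responder tumours were next set against control IgG tumours, whose mice had no antibody against PD-L1. Here 5 of the 6 genes were called higher, against 14.5% of all genes called higher and 37.3% called in either direction. Igtp had a median of 12.03 in Responder tumours and ran from 10.24 through 11.25 to 12.04 in control IgG tumours, so 13 of 27 Responder arrays exceeded all 22 control arrays. The difference was 0.82 ± 0.19 for Igtp (limma adjusted p = 0.00128), 0.68 ± 0.16 for Irgm2 (0.00182), 0.60 ± 0.15 for Irgm1 (0.0025) and 0.52 ± 0.19 for Iigp1 (0.0314), each adjusted p in brackets. Ubd was 3.89-fold higher (1.96 ± 0.48, limma adjusted p = 0.0027), with 16 of 27 Responder arrays above the highest control array at 9.99. The counts for Igtp and Ubd ignore the title series, and the smaller series holds no control IgG array. Within the larger series 6 of 17 Responder arrays for Igtp and 7 of 17 for Ubd exceeded all 14 control arrays. Ifi47 did not pass (0.29 ± 0.16, limma adjusted p = 0.129), and its interval ran from -0.02 to 0.60. It was called with no series term (0.38, limma adjusted p = 0.0235) and with array weights (0.34, limma adjusted p = 0.0283). After median centring 24.4% of the genes called were higher, against 38.9% as deposited. All 7 T cell markers, 7 of 8 macrophage markers and 4 of 7 markers of natural killer and cytotoxic cells were called higher here too. Of 6 B cell markers 0 were called. The part of these cells was not tested. Differences taken directly within the larger series were 0.79 for Igtp, 0.66 for Irgm2, 0.63 for Irgm1, 0.55 for Iigp1, 0.28 for Ifi47 and 1.78 for Ubd.

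Tumours that grew under the antibody did not differ detectably from control IgG tumours in these genes. None of the 6 was called in NonResponder minus control IgG, nor any of 18193 genes (limma; 838 genes at an unadjusted p under 0.05, and 21 called with array weights). Irgm1 had the highest difference (0.11 ± 0.15) and Ubd the lowest (-0.25 ± 0.50). The intervals reached from -0.36 to 0.40 for Igtp and from -1.24 to 0.74 for Ubd, so a difference as large as that of Responder tumours lies outside them. The same control IgG arrays enter both comparisons.

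**Figure D2:**
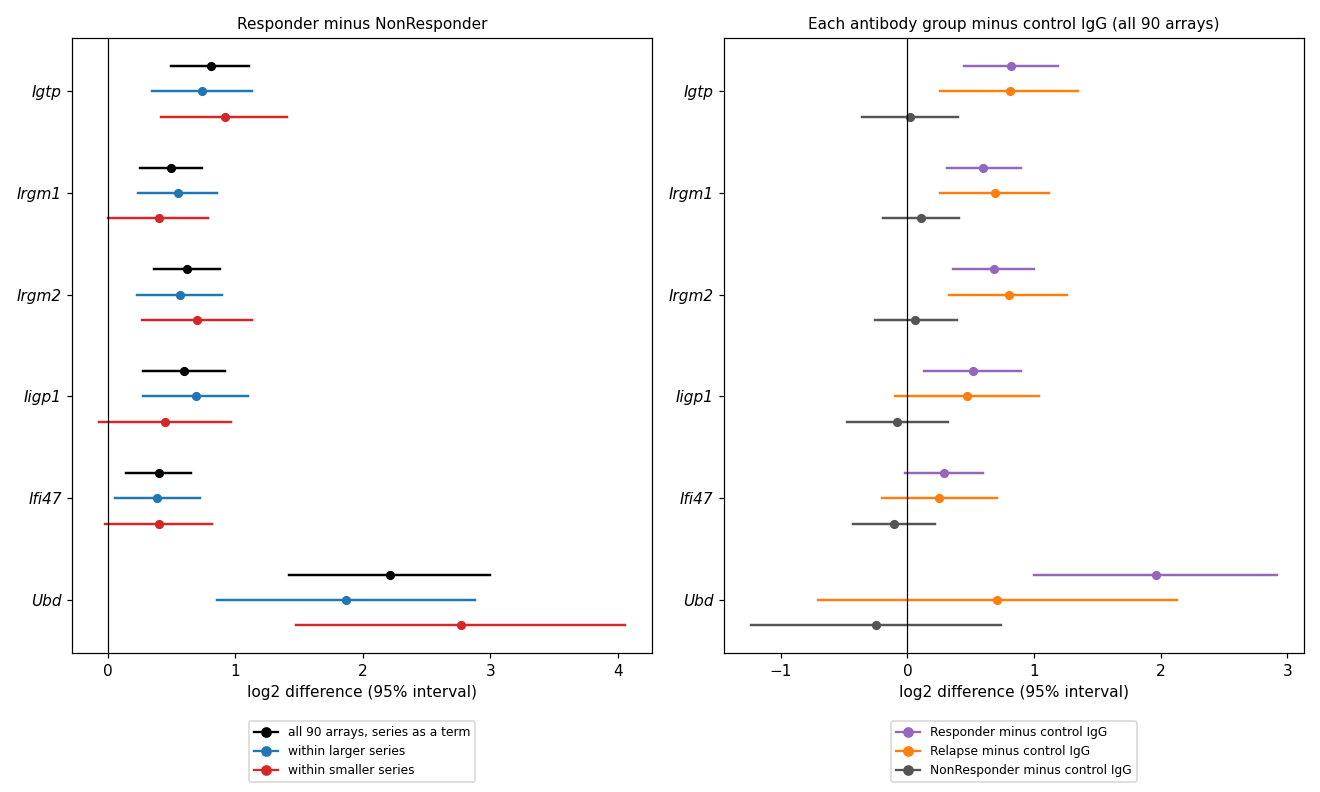
Log2 differences (points) with 95% intervals (lines) for the 6 genes. The left panel shows Responder minus NonResponder in all arrays and within each title series, where every point lies above 0. The right panel shows Responder, Relapse and NonResponder each minus control IgG, where the NonResponder intervals all include 0, as do those of Relapse for Iigp1, Ifi47 and Ubd and that of Responder for Ifi47.

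Between Relapse and NonResponder tumours the 6 genes differed by 0.36 to 0.96, and 3 of them, Igtp, Irgm1 and Irgm2, were called higher. Whether the 6 differences differ from each other was not tested. Irgm2 read 11.16, 10.6, 10.23, 10.44, 10.38 and 10.82 in the 6 Relapse arrays, against a NonResponder median of 9.83, which all of them exceeded. The difference from NonResponder was 0.73 ± 0.21 for Irgm2 (limma adjusted p = 0.02), 0.79 ± 0.25 for Igtp (0.0259) and 0.58 ± 0.20 for Irgm1 (0.0342), and these 3 genes were called, against 8.43% of all genes called higher and 20.3% in either direction. Iigp1 (0.55 ± 0.26, limma adjusted p = 0.097) and Ifi47 (0.36 ± 0.21, 0.175) did not pass. Ubd read 10.11, 7.86, 6.54, 9.43, 8.09 and 9.57 in the Relapse arrays, against a range of 4.14 to 10.39 in NonResponder tumours. All of them lay inside the NonResponder range, and the difference of 0.96 ± 0.65 did not pass (limma adjusted p = 0.239). Within the title series none of the 6 was called (limma adjusted p = 0.621 to 0.671 in the larger and 0.0715 to 0.523 in the smaller, where 13.1% of all genes were called and none in the larger), at 0.70 and 0.78 for Irgm2. Median centring moved the median of all genes by -0.12, and relative to that median Irgm2 differed by 0.79 before and after it. Centring left 10.8% of the genes called on the higher side, against 41.5% as deposited, and quantile normalization 25.1%.

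Against control IgG the same 3 genes were called in Relapse tumours (Irgm2 0.80 ± 0.24, Igtp 0.81 ± 0.27, Irgm1 0.69 ± 0.22; limma adjusted p = 0.0176 to 0.0297), against 10.5% of all genes called higher and 23.6% in either direction. In the larger series fitted alone none of them was called, at differences of 0.79, 0.85 and 0.66, and in all arrays with no series term only Irgm2 was. Few of all genes were called in the larger series alone (count in the closing paragraph), and the share with no series term is not given. Of the genes called, 19.5% were higher after centring and 34% after quantile normalization, against 44.6% as deposited. Relapse tumours held T cell markers at a median of 7.41 (6.49 to 8.41) and macrophage markers at 10.58 (9.65 to 10.95), and control IgG tumours at 6.2 (5.45 to 7.04) and 9.7 (9.01 to 11.68). Of the markers, 3 of 7 for T cells and 0 of 8 for macrophages were called higher against control IgG, and 3 of 7 and 4 of 8 against NonResponder. No marker of natural killer and cytotoxic cells or of B cells was called in either comparison. The part of these cells was not tested.

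Between Relapse and Responder Ubd had the largest difference of the 6 genes, and it did not pass the test. The 5 GTPases differed by -0.04 to 0.11, with an interval of -0.50 to 0.47 for Igtp, and Ubd differed by -1.25 ± 0.64 (0.42-fold; unadjusted p = 0.0526, limma adjusted p = 0.909). No member and no other gene was called (limma; 803 of 18193 at an unadjusted p under 0.05, and 5 called with array weights). In the smaller series the 3 Relapse arrays had Ubd at 9.43, 8.09 and 9.57, all below the 10 Responder arrays, whose lowest was 9.97. How many of all genes separate these arrays was not counted, and 1849 of 18193 had an unadjusted p under 0.05 there (limma). In the larger series Relapse arrays at 10.11, 7.86 and 6.54 lay within the Responder range of 6.25 to 11.01. An exact permutation test within series, added after these values were seen, took Ubd relative to each GTPase. It gave -1.25 to -1.39 (two-sided, 326040 regroupings, adjusted p = 0.0324 to 0.0482 over 15 pairs). All pairs with Ubd share the same Ubd values, so they are not separate results. The adjustment over 15 pairs does not cover a test chosen after the values were seen. Without the arrays low in melanocyte markers the values were -1.10 to -1.29 and none passed (exact, adjusted p = 0.0532 to 0.0635). Ifng, the gene of interferon gamma, read 6.17, 5.74 and 6.1 in the smaller-series Relapse arrays, and from 6.14 to 8.25 in the Responder arrays of that series.

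None of the 6 genes was called in the comparisons of Stabilization or GrowthDelay tumours. Stabilization arrays had Ubd at 8.32, 10.75 and 10.74, against a Responder range of 9.97 to 12.09 and a NonResponder range of 6.3 to 9.68 in the smaller series, the only one that holds them. Their differences from NonResponder were 1.59 ± 0.89 for Ubd (limma adjusted p = 0.173) and -0.01 to 0.44 for the GTPases. In that fit 10.5% of all genes were called higher and 22.4% in either direction. After centring 31.6% of the genes called were higher, against 46.9% as deposited, and without replicate 1 only 2 genes were called at all. Ubd was called with no series term, and Igtp, Irgm2 and Ubd with array weights. The shares above are not those of these alternative fits, so the calls cannot be read against them. From Responder tumours they differed by -0.62 ± 0.89 for Ubd and by -0.51 to -0.29 for the GTPases, with 0.319% of all genes called (limma; 2402 at an unadjusted p under 0.05). Replicate 1, low in melanocyte markers, was the lowest of the 3 for all 6 genes, and without it the difference from Responder was 0.19 for Ubd and 0.04 for Irgm1.

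GrowthDelay arrays had Ubd at 7.49 and 4.91, inside the NonResponder range of the larger series (4.14 to 10.39), and a difference of -0.73 ± 1.05. No member was called there (limma adjusted p = 1 for each), nor any other gene (567 of 18193 at an unadjusted p under 0.05). Between control IgG and PBS the differences ran from -0.08 for Ifi47 to 0.15 for Ubd with none called, against 0.0055% of all genes (limma; 240 genes at an unadjusted p under 0.05). For Igtp, Irgm1, Irgm2 and Ubd the PBS arrays of the 2 title ranges overlapped, and for Iigp1 and Ifi47 they did not. The share of all genes without overlap between these arrays was not counted. Igtp read 11.38, 10.71 and 11.05 in the larger series, and 9.63, 10.79, 10.14 and 10.0 in the range of PBS arrays alone. Iigp1 ran from 11.95 to 12.11 in the larger series and from 10.15 to 11.49 in the other. Ifi47 ran from 11.82 to 11.91 and from 10.82 to 11.63. The range of PBS arrays alone has no control IgG arrays, so it adds nothing to the difference.

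The 7 groups were also put in order by their means over all arrays, which ignore the title series, and neighbours were then tested in the fit with the series term. Of 36 such neighbours over the 6 genes none passed (limma, smallest adjusted p = 0.414). Neighbours lie closest in the same values that set the order, so this outcome was largely fixed in advance. The order itself was not tested. The means of Igtp ran from Relapse (12.06) and Responder (12.05) through Stabilization (11.78), GrowthDelay (11.26), NonResponder (11.25) and control IgG (11.18) to PBS (10.53). Ubd began with Stabilization (9.94), followed by Responder (9.67), Relapse (8.60), control IgG (7.51), NonResponder (7.49), PBS (6.55) and GrowthDelay (6.20). The order depends on the series, since Stabilization lies in the smaller series alone and the fitted Stabilization minus Responder difference of Ubd was -0.62. PBS had the lowest mean over all arrays of Iigp1 (11.5), and the fitted difference of control IgG minus PBS was -0.06 and of NonResponder minus PBS -0.14.

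Over all arrays the 6 genes were positively correlated with each other, but not in every group taken alone. After the mean of each group and title series was subtracted, Pearson's r over the 90 arrays was 0.957 between Igtp and Irgm2, 0.912 between Iigp1 and Ifi47 and 0.902 between Irgm1 and Irgm2. It was lowest between Irgm1 and Ubd (0.496). These correlations are descriptions, since each point is an array that all genes share. For comparison, the median r with all genes was -0.05 for Igtp and for Ubd, and 35 and 24 genes exceeded 0.8. Whether the probes of Igtp and Irgm2 also bind each other's transcript was not tested.

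**Figure D3:**
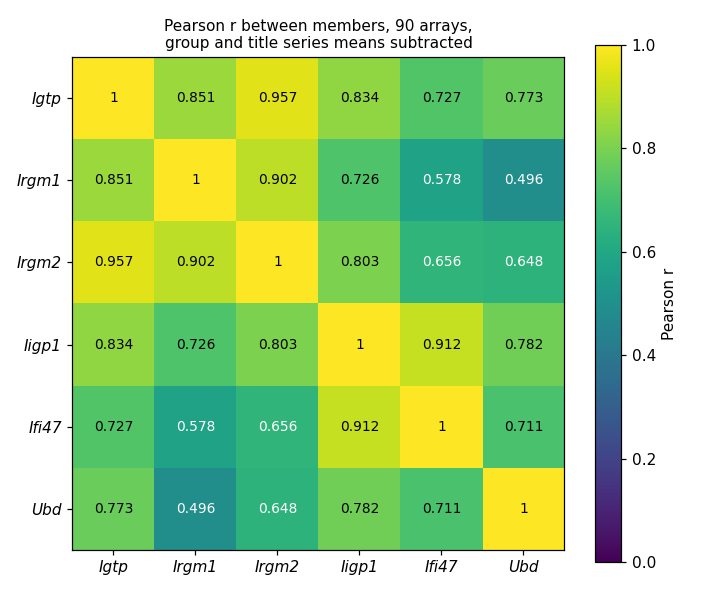
Pearson's r between the 6 genes over the 90 arrays after subtraction of group and title series means, written in each cell and coloured from 0 to 1. Igtp and Irgm2 (0.957), Iigp1 and Ifi47 (0.912) and Irgm1 and Irgm2 (0.902) stand out, and the row of Ubd runs from 0.496 to 0.782.

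The genes whose pattern was most like each member differed between the members. For Igtp they were Irgm2 (0.957), the guanylate-binding protein gene Gbp2 (0.945), the transcription factor gene Irf1 (0.92), and Parp14 and Gbp6 (0.909 each). For Irgm1 they were Irgm2 (0.902), the ubiquitin ligase gene Herc6 (0.898), Batf2 (0.889), Gbp3 (0.879) and Oasl2 (0.865), and for Irgm2 they were Igtp, Batf2 (0.926), Irgm1, Gbp2 (0.899) and the immunoproteasome gene Psmb10 (0.896). Iigp1 was closest to Gm4951 (0.966), Gbp6 (0.951), Gbp7 (0.932), Ifi47 and BC023105 (0.91). Ifi47 was closest to Iigp1, Gm4951 (0.901), the immunoproteasome gene Psmb9 (0.899), the nucleic acid sensor gene Zbp1 and Parp9 (0.896 each). Ubd shared none of these 5 nearest genes with a GTPase and was closest to Calhm6 (0.935), Gbp8 (0.907), AW112010 (0.904), the T cell chemokine gene Cxcl9 (0.886) and Slamf8 (0.869).

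Of the 6 genes, Ubd had the highest correlation with Ifng in NonResponder and in control IgG tumours. In the 23 NonResponder arrays Ubd and Ifng had r = 0.901 (rho = 0.922, permutation p = 1e-05 for both, adjusted p = 0.0001 for r over 30 relations, the larger Responder sets included) after series means were subtracted. The smallest p that 100000 permutations can give is 1e-05. By series r came to 0.899 (larger) and 0.94 (smaller), and leaving out the 2 arrays farthest from the median gave 0.877. In the 22 control IgG arrays it was 0.922 (rho = 0.932, permutation p = 1e-05 for both, adjusted p = 0.0001), with 0.912 within the larger series, 0.936 within the series of control IgG alone and 0.923 without the 2 farthest arrays. Irgm1 had the weakest relation with Ifng, at r = 0.502 in NonResponder tumours (rho = 0.572, permutation p = 0.014, adjusted p = 0.0293) and 0.504 in control IgG tumours (rho = 0.527, permutation p = 0.0173, adjusted p = 0.0305). Without the 2 farthest arrays these fell to 0.403 and 0.363. By series it came to 0.61 (larger, Irgm1 SD 0.41) and 0.178 (smaller, 9 arrays, Irgm1 SD 0.18) in NonResponder tumours. Whether the correlations of 2 genes with Ifng differ was not tested. Ifng read low in these groups, with medians of 5.09 in NonResponder and 4.89 in control IgG tumours, below the lowest array median of 5.71. The part of its low level in these correlations was not tested.

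In the 10 Responder arrays of the smaller series Ubd and Ifng had r = 0.783 (rho = 0.794, permutation p = 0.00508 and 0.00822, adjusted p = 0.0127), and 0.909 without the 2 farthest arrays. Responder arrays of the larger series fell into separate sets at the gap in Ubd, which Ifng shared (6.12 for the highest of the 10 arrays and 7.04 for the lowest of the 7), so no pooled r is given. Because Ubd itself set the sets apart, values within them are descriptions with no test. In the 10 lower arrays Ubd and Ifng had r = 0.862, and 0.797 without the 2 farthest arrays. In the 7 upper arrays r was -0.502, and -0.974 without the 2 farthest arrays, which leaves 5. There Ubd had r of -0.794 to -0.906 with the GTPases, and -0.721 to 0.191 without the 2 farthest arrays. The GTPases correlated among themselves at 0.936 to 0.998, and at 0.428 to 0.977 without the 2 farthest arrays.

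Of the 15 member pairs, 15 passed in control IgG tumours, with r of 0.576 to 0.978 (permutation tests, adjusted over 75 relations). Those relations include the larger-series Responder sets split at the Ubd gap. In NonResponder tumours 14 passed, with r of 0.33 to 0.952, and in the Responder arrays of the smaller series 9 did. In those Responder arrays the 5 pairs with Ubd did not pass, with r of -0.0565 to 0.38 (permutation, adjusted p = 0.3 to 0.946), and 0.494 to 0.773 without the 2 farthest arrays. Within the 9 NonResponder arrays of the smaller series Irgm2 had r = 0.0264 with Ubd and -0.0435 with Ifi47, against 0.774 and 0.612 within the 14 arrays of the larger series. Irgm2 itself varied less in the 9 arrays (SD 0.17) than in the 14 (SD 0.57), and the part of that in r was not tested.

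**Figure D4:**
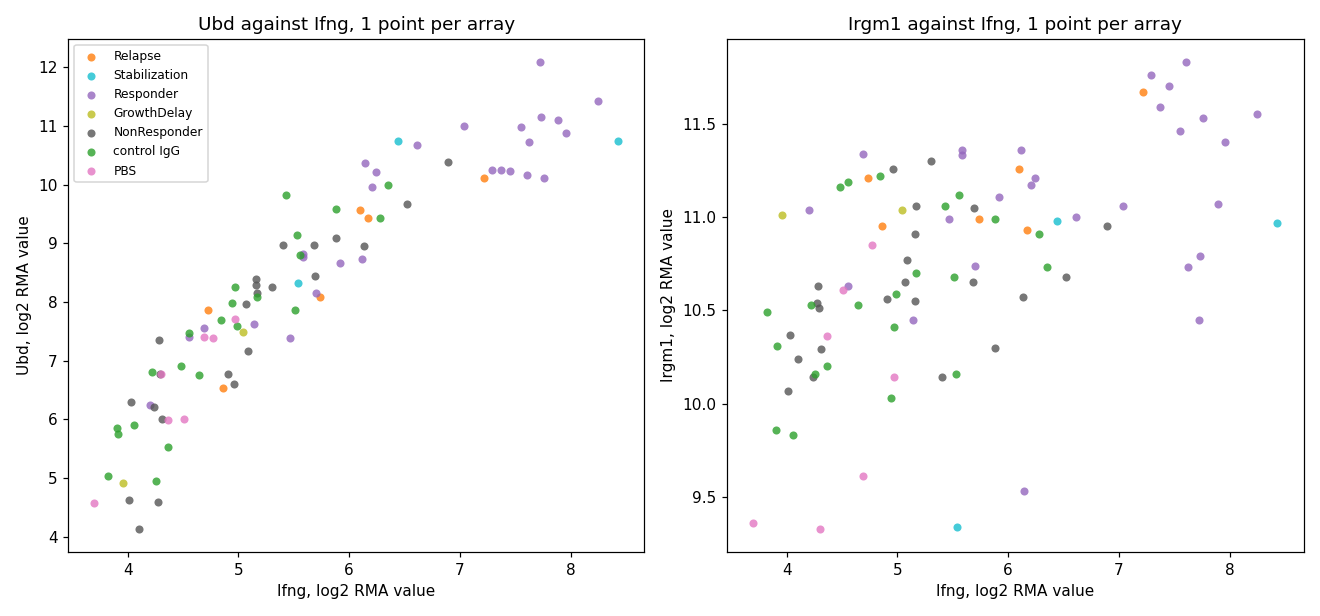
Ubd (left, vertical axis) and Irgm1 (right, vertical axis) against Ifng (horizontal axes), all as deposited log2 values, 1 point per array, coloured by group. Arrays low in Ifng were low in Ubd, the 7 upper Responder arrays of the larger series begin at an Ifng of 7.04, and Irgm1 spreads widely at a given Ifng level.

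The pathway around the members gave the following counts for Responder minus NonResponder, against 17.2% of all genes called higher and 29.8% lower. Of 14 genes of interferon gamma signalling, 12 were called higher and none lower, with a median difference of 0.49. Ifng was higher by 1.52 ± 0.25, the transcription factor genes Irf8 by 1.40 ± 0.23 and Irf1 by 0.71 ± 0.14, and the feedback inhibitor gene Socs1 by 0.72 ± 0.13 (limma adjusted p = 5.17e-05 to 0.000197). All 6 measured guanylate-binding protein genes, which encode large GTPases of a sister family, were called higher with a median of 0.90, Gbp8 by 1.93 ± 0.31 and Gbp3 by 0.45 ± 0.10. Of 4 other genes of the GTPase family on the list, Gm4951 (0.69 ± 0.17), Gm12185 (0.37 ± 0.11) and Irgq (0.29 ± 0.11) were called higher and Irgc1 lower (-0.18 ± 0.05).

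Of 10 genes for Ubd conjugation and its partners, 6 were called higher and 1 lower, with a median of 0.19. They included Ube2z (0.17 ± 0.06), the conjugating enzyme of Ubd, and Vcp (0.33 ± 0.09), a segregase that unfolds tagged proteins. The immunoproteasome genes Psmb10 (0.37 ± 0.11) and Psmb9 (0.31 ± 0.11) were higher as well (limma adjusted p = 0.00335 to 0.0208 for the 4). Of 12 autophagy factors that place GTPases on membranes, 3 were higher and 2 lower, with a median of 0.05. Becn1 (0.16 ± 0.05) and Atg7 (0.19 ± 0.06) were higher, and Gabarapl2 (-0.51 ± 0.14) and Atg12 (-0.36 ± 0.12) lower (limma adjusted p = 0.00412 to 0.0137). In NonResponder minus control IgG no gene of these 5 lists was called, and their medians lay between -0.04 and 0.03. In Relapse minus NonResponder 6 of 14 interferon gamma signalling genes and 3 of 6 guanylate-binding protein genes were called higher, against 8.43% of all genes. In the same comparison 1 of 10 genes for Ubd conjugation was higher, 1 of 12 autophagy factors was higher and 1 lower, and 1 of 4 other GTPase genes was higher and 1 lower.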

How the data were processed

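Expression was measured in 90 tumour samples on Affymetrix mouse arrays from 800 ng of RNA each, per the labels' protocols. The deposited log2 values were made by the authors with RMA, per the submitters' processing notes, which also name limma; versions, and which arrays were normalized together, are not given in the sources used here. The table holds 45101 probe sets. After removal of 64 control probe sets, 34945 had 1 gene symbol, 932 several and 9160 were not listed; each of the 18193 genes was represented by its probe set with the highest mean, a choice for 9010 genes. No pair of columns was identical. All arrays entered 1 limma fit (limma 3.58.1, R 4.3.3, lmFit and eBayes) with group and title series as terms, two-sided and adjusted by Benjamini-Hochberg over all genes, with a threshold of 0.05; a second fit with a mean per group and series gave within-series values and the interaction. Folds are powers of 2 of log2 differences, and their 95% intervals come from limma. Permutation tests and correlations used Python 3.11.15 (numpy 2.4.6). Precision is limited by the number of arrays. The procedures were tested on simulated data.

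The text names all 6 members, Ifng, up to 4 genes per pathway list with the smallest p in Responder minus NonResponder, and the 5 genes with the highest r for each member. Members, lists, tests and alternatives were chosen with earlier results of these data known. Alternatives tried were centring, quantile normalization, averaging or separate testing of probe sets, dropping dim genes, the series as no term or a random block, array weights, a trended and robust eBayes, single series and left-out replicates. Leaving out arrays low in melanocyte or high in lymph node markers, splitting the Responder correlations at the Ubd gap and testing pairs for Relapse were added after seeing the data.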

Additional observations from a re-analysis of the deposited data

Results flagged for a closer look

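In PBS replicate 4 Iigp1 read 10.15, the lowest of the 7 PBS arrays and far below the others (11.39 to 12.11) by Dixon's test. Of 14 groups of 4 to 10 arrays tested over the 6 genes and Ifng, this was the only one so marked, where chance marks about 1 in 20. The array was also the lowest PBS array for Igtp (9.63), Irgm2 (8.19), Ifi47 (10.82), Ubd (4.58) and Ifng (3.70).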

How the results depend on the processing

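No paired analysis was possible because the replicate numbers only follow the order of the samples and tie no array of one group to an array of another. Of 134 recomputed counts, 128 stayed within 1.5 times the reported one, and a reported 0 that stayed 0 is among these. The exceptions were Responder minus NonResponder, with 3 of 6 members called in the larger and 3 in the smaller series fitted alone (reported 6); Relapse minus control IgG, with 1 with no series term and 0 in the larger series alone (reported 3); and Stabilization minus NonResponder, with 1 (Ubd) with no series term and 3 (Igtp, Irgm2 and Ubd) with array weights (reported 0). A series alone holds fewer arrays; for the other settings the cause was not tested. Over the alternatives the Responder minus NonResponder difference ran from 1.87 to 2.77 for Ubd, 0.72 to 0.92 for Igtp and 0.31 to 0.48 for Ifi47.

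Signs turned only for differences that were not called as reported. With quantile normalization NonResponder minus control IgG was -0.0012 for Igtp, and -0.06 without either set of arrays apart in markers. Relapse minus Responder turned with no series term to 0.0032 for Igtp and 0.0019 for Ifi47, and for Irgm1 to -0.04 with array weights and -0.0095 without the low-melanocyte arrays. Stabilization minus Responder turned for Ubd to 0.27 with no series term, 0.08 with array weights and 0.22 without the low-melanocyte arrays, for Igtp to 0.003 with array weights and for Ifi47 to 0.03 without the low-melanocyte arrays. Stabilization minus NonResponder turned for Ifi47 to -0.06 with centring and for Irgm1 to 0.32 with array weights and 0.48 without the low-melanocyte arrays. GrowthDelay minus NonResponder was -0.05, -0.01 and -0.04 for Iigp1 with no series term, a random block and array weights, and control IgG minus PBS 0.45 and 0.35 for Iigp1 and 0.23 and 0.18 for Ifi47 with no series term and a random block. Leaving out 1 replicate of Stabilization moved its difference from Responder over -0.79 to 0.04 for Irgm1, -0.53 to 0.01 for Irgm2, -0.57 to 0.12 for Iigp1, -0.64 to 0.09 for Ifi47 and -1.02 to 0.19 for Ubd, and from NonResponder over -0.29 to 0.53 for Irgm1 and -0.24 to 0.49 for Ifi47. Leaving out 1 GrowthDelay replicate, which leaves a lone array assumed to vary like the other groups, gave -0.28 to 0.41 for Igtp, -0.69 to 0.73 for Iigp1, -0.67 to 0.36 for Ifi47 and -2.03 to 0.56 for Ubd. The cause was not tested.

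Counts over all genes moved more: Responder minus NonResponder gave 550 genes in the larger series alone, 3467 in the smaller one and 4397 among genes above the median level, against 8552; Responder minus control IgG gave 3448 among genes above the median level, 4132 with quantile normalization and 11192 with array weights, against 6791; Relapse minus NonResponder ran from 1327 with quantile normalization to 10278 with array weights, against 3697; Relapse minus control IgG from 20 in the larger series alone to 10390, against 4298; and Stabilization minus NonResponder from 2 without Stabilization replicate 1, and 0 without the low-melanocyte arrays, to 9942, against 4074.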
